A study of Mus musculus with 12 samples.

Results

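Wif1, Dkk2, Dkk3, Sfrp1 and Sfrp2 encode secreted proteins that act outside the cell on Wnt signalling. These 5 genes, of 23955 in the deposited gene tables, were followed by name through 5 groups of cultured mouse cortical neurons. They were selected on the measured counts of Wif1 and Dkk2, whose knockdown effects change direction with the control hairpin against which they are read. The contrasts of Wif1 and Dkk2 with either control hairpin are therefore given as descriptions, with no test. Dkk3, Sfrp1 and Sfrp2 joined as family members and were tested throughout. All 5 genes passed the filter on low counts, in a table in which 14785 genes did.

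Wnt ligands bind Frizzled receptors together with the co-receptors LRP5 and LRP6, which keeps beta-catenin from being degraded and lets it act with TCF/LEF factors on target genes. Secreted antagonists work at the first step: WIF1 and the secreted Frizzled-related proteins bind Wnt ligands, while Dickkopf proteins such as DKK2 bind LRP5 and LRP6. DKK3 is the divergent member of the Dickkopf family and is not known as a classical LRP5/6 ligand. In the developing cortex Wnt signalling takes part in progenitor division, regional patterning and later axon and synapse growth.

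The neurons came from C57BL/6J mouse cortices dissected at E16.5, were infected a day after seeding with lentivirus carrying a short hairpin RNA in the pGreenPuro backbone, and were harvested 7 days after dissection. The groups were shAdar1, shAdar2 and shZfr, which target the RNA editing enzymes ADAR1 (gene Adar) and ADAR2 (gene Adarb1) and the zinc finger RNA-binding protein ZFR, and the control hairpins shControl2 and shControl1. Each group had 2 biological replicates, and shAdar2 replicate 1 was sequenced as 3 technical libraries from the RNA of the same neurons, which were summed. The study set shAdar1 and shAdar2 against shControl1, and shZfr against shControl2, to find the editing sites that each protein controls. Each group carries 1 named hairpin, no uninfected neurons are among the samples, and the labels give neither the hairpin sequences nor the litter or day of a culture, so hairpin and culture cannot be told apart. Nothing states how independent the replicates' cultures were, and p-values measure the spread between these samples.

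The 12 libraries held 1.58e+07 to 2.97e+07 expected counts. Each targeted gene was lower in its own knockdown than in its control. Adar was at 53.3 ± 2.43 CPM (normalised counts scaled to a common library size) in shAdar1 neurons, against 172 ± 27.6 CPM in shControl1 neurons (SD, n = 2 each; log2 fold change -1.69 ± 0.13 SE, edgeR adjusted p = 0.000341). Adarb1 was at 50.2 ± 2.53 CPM in shAdar2 neurons, against 120 ± 2.77 CPM in shControl1 neurons (-1.26 ± 0.12, adjusted p = 7.12e-05). Zfr was at 173 ± 0.118 CPM in shZfr neurons, against 459 ± 52.6 CPM in shControl2 neurons (-1.41 ± 0.11, adjusted p = 6.36e-05). Zfr also differed between the control hairpins, higher in shControl2 than in shControl1 neurons (0.72 ± 0.11, adjusted p = 0.000886). Against shControl1 its value in shZfr neurons was -0.69 ± 0.11 (adjusted p = 0.000941). Adarb1 was also lower in shZfr neurons, at 47.3 ± 2.62 CPM, against 95.7 ± 5.25 CPM in shControl2 neurons (-1.02 ± 0.12, adjusted p = 0.000381), and Zfr was also lower in shAdar2 neurons, at 188 ± 12.6 CPM, against 279 ± 15.6 CPM in shControl1 neurons (-0.57 ± 0.11, adjusted p = 0.00292). Between shZfr and shAdar2 neurons neither Adarb1 (-0.08 ± 0.12, adjusted p = 0.564) nor Zfr (-0.12 ± 0.11, adjusted p = 0.36) passed the test, so these levels do not tell the labels of those knockdowns apart. All 8 pan-neuronal markers were detected in every group, with summed levels between 2680 and 7740 CPM, and astrocyte and radial glia markers reached 675 to 3360 CPM, so the cultures held glial RNA as well. The shZfr replicates lay closer together than any other pair of libraries, with a mean chi-square of 2.34 per gene against 27.5 to 60.1 for the other replicate pairs and 21.9 to 60.2 for pairs of technical libraries. They were kept as 2 samples, and calls in shZfr neurons are also given with both summed to 1 for the 5 genes, for Zfr (-1.4, adjusted p = 0.00238, against shControl2) and for the pathway genes named against shControl2.

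The promoters of Wif1 and Dkk2 are shown because these genes share a pattern, their highest level in shControl1 neurons. They are RefSeq sequences on GRCm38.p6, plus strand, 5′ to 3′, from 250 bases before to 50 bases after the start site, at chr10:121033754-121034053 for Wif1 and chr3:132085042-132085341 for Dkk2. Capitals mark matches to the TCF/LEF core (CTTTGA or CTTTGT) or to TATAAA, searched on both strands, with no overlap between the matches shown.
Wif1: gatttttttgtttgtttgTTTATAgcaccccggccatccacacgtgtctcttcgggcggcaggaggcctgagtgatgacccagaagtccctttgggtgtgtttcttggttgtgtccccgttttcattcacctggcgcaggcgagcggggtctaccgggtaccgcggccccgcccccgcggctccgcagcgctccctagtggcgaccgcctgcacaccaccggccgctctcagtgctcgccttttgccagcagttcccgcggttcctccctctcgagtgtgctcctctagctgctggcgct
Dkk2: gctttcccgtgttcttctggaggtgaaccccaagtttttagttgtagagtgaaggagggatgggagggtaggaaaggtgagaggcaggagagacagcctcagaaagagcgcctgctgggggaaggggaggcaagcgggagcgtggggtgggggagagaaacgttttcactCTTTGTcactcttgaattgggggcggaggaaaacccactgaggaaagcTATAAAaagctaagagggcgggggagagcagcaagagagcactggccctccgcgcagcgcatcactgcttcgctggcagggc
The Dkk2 promoter held a TCF/LEF core beginning at -80 and TATAAA beginning at -32, both on the gene's strand. The Wif1 promoter held no TCF/LEF core and 1 match to TATAAA on the opposite strand, at -232. A TCF/LEF core occurs in 31.2% and TATAAA in 13.6% of the 32851 promoters of the same length, so such matches are common and describe the letters alone. The Sfrp2 promoter, the remaining entry of 3 for the 5 genes, held neither word. The observed-over-expected ratio of CpG was 0.848 in Wif1, 0.499 in Dkk2 and 0.682 in Sfrp2, all above the median of 0.384 over all promoters. The genes lie apart in GRCm38 (GENCODE M21), Wif1 on chromosome 10, Dkk3 on chromosome 7, Sfrp1 on chromosome 8, and Dkk2 and Sfrp2 at separate places on chromosome 3. Sfrp2 shares 464 bases with the antisense gene Gm26771, which has no row in the count tables. The sources used here do not say whether strand was used in counting, so reads from the antisense gene could add to Sfrp2.

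Wif1, which binds Wnt ligands through its WIF domain, was high in shControl1 neurons and low in the other 4 groups. It had 1.09 and 1.22 CPM in shAdar1 neurons, 0.990 and 0.545 CPM in shAdar2 neurons, 0.230 and 0.553 CPM in shZfr neurons, 0.429 and 0.776 CPM in shControl2 neurons, and 4.42 and 18.8 CPM in shControl1 neurons. Both shControl1 samples lay above the other 8, and they lay 4.25-fold apart from each other. That gap, 2.07 on the log2 scale, was exceeded by 0.446% of the 14785 tested genes. Behind these levels stood 24 and 33 counts in shAdar1, 93 and 10 in shAdar2, 4 and 11 in shZfr, 9 and 17 in shControl2, and 115 and 583 in shControl1. The order of the group means was shControl1, shAdar1, shAdar2, shControl2, shZfr. The samples of shAdar2 overlapped those of shControl2, and the samples of shControl2 overlapped those of shZfr.

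Against shControl1, Wif1 stood at log2 fold changes of -3.32 in shAdar1, -3.82 in shAdar2 and -4.85 in shZfr neurons. Against shControl2 the same knockdowns gave 0.93, 0.44 and -0.6. The sign thus turned with the control hairpin for shAdar1 and shAdar2 and not for shZfr. shControl2 against shControl1 gave -4.26, between the values of shAdar2 and shZfr against shControl1. Taken sample by sample, the log2 ratio of shAdar1 to shControl1 ran between -4.02 and -1.81, and that of shAdar2 to shControl2 between -0.46 and 1.09. Without shControl1 replicate 2 the distance from shControl1 shrank to -1.93 in shAdar1 and -2.87 in shControl2 neurons. These comparisons share their control samples, and their values stand side by side for that reason.

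Dkk2, the Dickkopf member that binds LRP6, followed the same order at its top and another one below it. It had 0.957 and 0.737 CPM in shAdar1 neurons, 0.543 and 0 CPM in shAdar2 neurons, 2.36 and 2.36 CPM in shZfr neurons, 0.239 and 0.0914 CPM in shControl2 neurons, and 4.46 and 8.24 CPM in shControl1 neurons. The groups shControl1, shZfr and shAdar1 followed each other without overlap, and the lowest groups, shAdar2 and shControl2, overlapped. The shAdar2 sample at 0 allows a level of up to 0.164 CPM (3 counts, counting error only). The levels in shControl2 rest on 5 and 2 counts, against 116 and 256 in shControl1. Relative to shControl1 the log2 fold change was -2.91 in shAdar1, -4.11 in shAdar2 and -1.43 in shZfr neurons. Relative to shControl2 it was 2.33, 1.13 and 3.82, so that the means of all 3 knockdowns were below one control hairpin and above the other. For shAdar2 the samples overlapped those of shControl2, with sample-by-sample log2 ratios between -2.19 and 1.95. shControl2 stood at -5.24 against shControl1, a 38.5-fold lower mean. Without shControl2 replicate 1, which leaves 2 counts in that group, the shZfr value against shControl2 was 4.62.

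**Figure D1:**
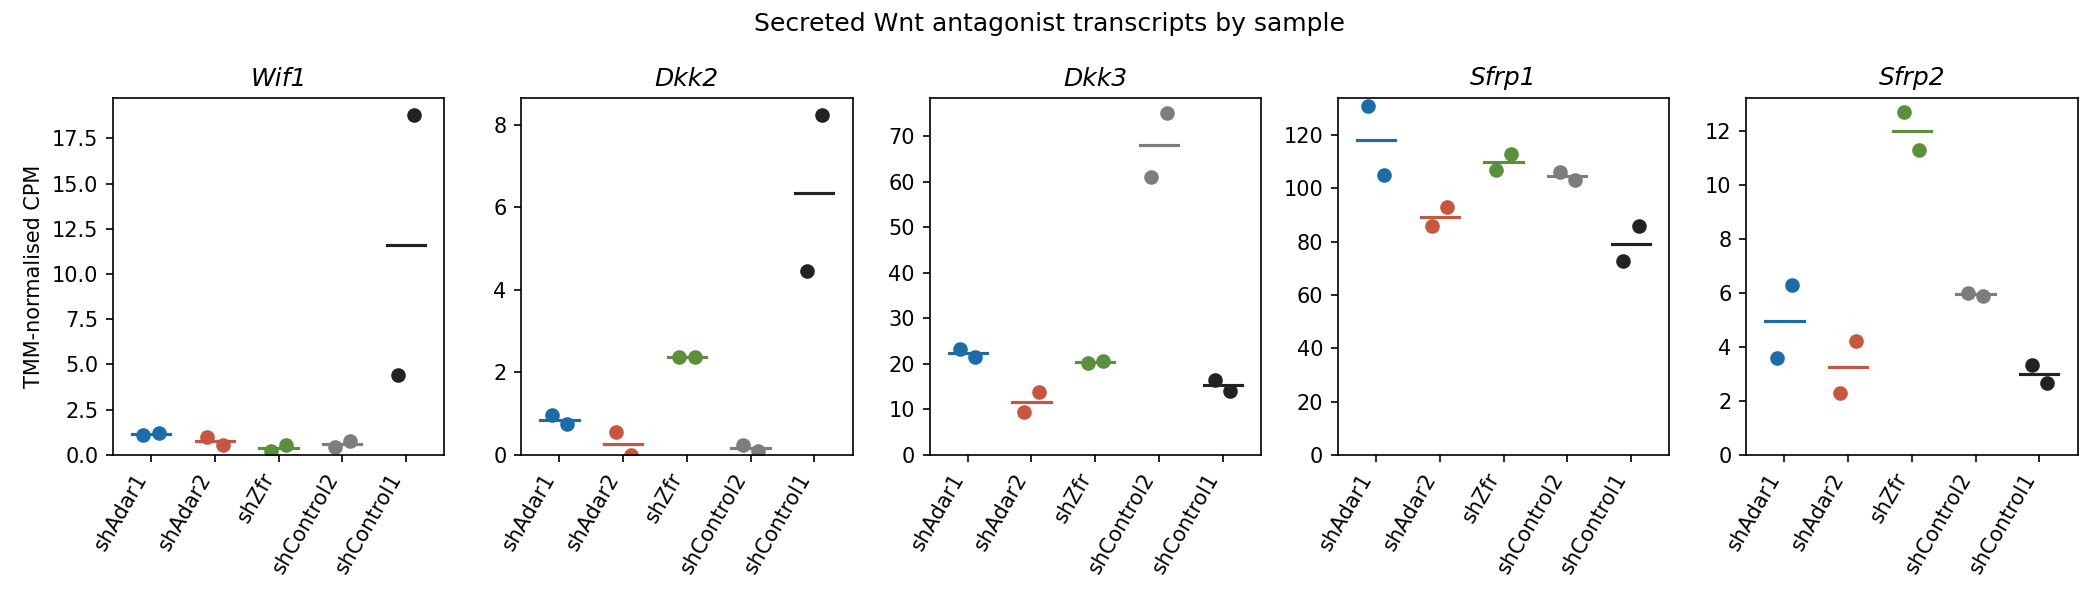
TMM-normalised CPM (vertical axis, linear, from 0) of each gene in the 2 samples of each group (points) with the group mean (line). Wif1 and Dkk2 are highest in shControl1 (4.42 to 18.8 and 4.46 to 8.24 CPM), Dkk3 in shControl2 (61.1 and 75.1 CPM) and Sfrp2 in shZfr (12.7 and 11.3 CPM), while the groups of Sfrp1 lie within 1.49-fold of each other.

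Comparisons of the knockdowns with each other use no control hairpin and were tested for all 5 genes. Dkk2 averaged 2.36 ± 0.00236 CPM in shZfr neurons and 0.271 ± 0.384 CPM in shAdar2 neurons (SD, n = 2 each), a log2 fold change of 2.68 ± 0.72 (SE) with an edgeR adjusted p of 0.0097, in a comparison that called 60.5% of all genes. With both shZfr samples summed to 1 it was 2.74 (adjusted p = 0.0312). That call was lost with the first technical library alone for shAdar2 replicate 1 (1.95, adjusted p = 0.0712) and in a fit of these 2 groups alone (2.78, adjusted p = 0.0763). The difference of Dkk2 between shZfr and shAdar1 neurons was 1.48 ± 0.71 (adjusted p = 0.125), and between shAdar2 and shAdar1 neurons -1.2 ± 0.75 (adjusted p = 0.229). Neither passed the test. Wif1 passed in none of the 3 pairs. Its log2 fold change was -0.49 ± 0.67 for shAdar2 against shAdar1 (adjusted p = 0.592), -1.53 ± 0.8 for shZfr against shAdar1 (adjusted p = 0.16) and -1.04 ± 0.8 for shZfr against shAdar2 (adjusted p = 0.283). With the compared groups alone in the fit, Wif1 and Dkk2 passed for shZfr against shAdar1 (-1.52, adjusted p = 0.0391, and 1.48, adjusted p = 0.00926), and with both shZfr samples summed to 1 they did not (-1.47, adjusted p = 0.29, and 1.53, adjusted p = 0.248).

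The technical libraries of shAdar2 replicate 1 show how far such low counts can be read. Their Dkk2 counts were 36, 15 and 0, with exact Poisson intervals of 25.2 to 49.8, 8.4 to 24.7 and 0 to 3.69, which do not overlap. Among the 410 genes with a like summed count (40 to 60) in these libraries, 11.2% also had a library at 0. Wif1 counts were 14, 33 and 46, or 0.428, 1.16 and 1.53 CPM, a 3.58-fold range. Of the 384 genes with a summed count between 80 and 110, 37.8% ranged over at least 3-fold. Libraries from the same RNA thus differed by more than counting error for both genes. Dkk3, Sfrp1 and Sfrp2 ranged over 1.33-fold, 1.5-fold and 1.33-fold. The log2 fold change of Wif1 in shAdar2 against shControl2 turned to -0.35 with the first technical library alone and to -0.15 without replicate 1. That of Dkk2 turned to at most -1.09 with the third library alone, where both shAdar2 samples are at 0 and the value is set by 3 counts over the group.

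**Figure D2:**
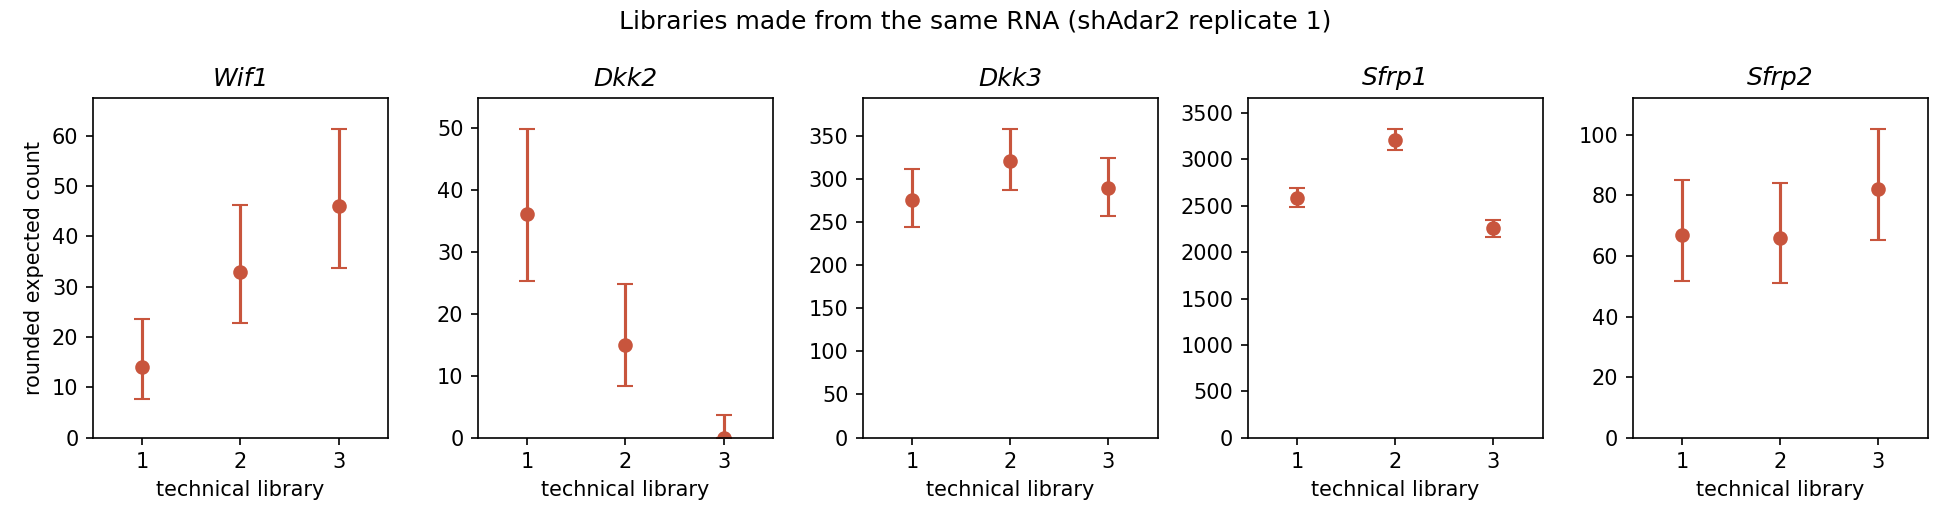
Rounded expected counts (vertical axis, linear, from 0) of each gene in the 3 technical libraries of shAdar2 replicate 1, with 95% exact Poisson intervals as bars. Dkk2 is at 0 counts in the third library, against 36 in the first and 15 in the second, and Wif1 lies between 14 and 46, while Dkk3 lies between 276 and 321.

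Dkk3 ran the other way from Wif1 and Dkk2 between the control hairpins. It had 23.2 and 21.5 CPM in shAdar1 neurons, 9.43 and 13.7 CPM in shAdar2 neurons, 20.2 and 20.6 CPM in shZfr neurons, 61.1 and 75.1 CPM in shControl2 neurons, and 16.4 and 14.1 CPM in shControl1 neurons. Both shControl2 samples stood above the other 8. The order below them was shAdar1, shZfr, shControl1, shAdar2, and the first of these neighbours, shAdar1 and shZfr, differed by -0.13 ± 0.19 (shZfr over shAdar1, adjusted p = 0.611, and 0.07 in deposited TPM).

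Dkk3 was 4.46-fold higher in shControl2 than in shControl1 neurons (log2 fold change 2.16 ± 0.19 SE, edgeR adjusted p = 6e-05). Sfrp1 and Sfrp2 were also called higher in that comparison, in which 19.9% of the tested genes were called higher and 43.1% were called in either direction. In shZfr against shControl2, Dkk3 fell by 1.74 on the log2 scale (SE 0.19, adjusted p = 0.000252, and -1.73 with an adjusted p of 0.00514 for the summed shZfr samples), and Sfrp2 was called as well, where 30.7% of tested genes were. Set against shControl1, Dkk3 in shZfr neurons stood at 0.42 ± 0.19 (adjusted p = 0.0946). The shAdar1 value was 0.55 ± 0.19 against shControl1 (adjusted p = 0.0746) and -1.61 ± 0.19 against shControl2 (adjusted p = 0.000459), where it was the single called gene of 3 and 33.2% of all genes were called. The shAdar2 value was -0.42 ± 0.19 against shControl1 (adjusted p = 0.0972) and -2.58 ± 0.19 against shControl2 (adjusted p = 1.1e-05), where Sfrp2 was called too and 59.5% of all genes were. All 3 knockdowns were thus lower than shControl2 and did not pass against shControl1. Without a filter on low counts shAdar1 passed against shControl1 (0.55, adjusted p = 0.0495), and shAdar2 did without its replicate 2 (-0.7, adjusted p = 0.00751). Dkk3 was lower in shAdar2 than in shAdar1 neurons (-0.97 ± 0.19, adjusted p = 0.00388) and higher in shZfr than in shAdar2 neurons (0.84 ± 0.19, adjusted p = 0.00393, and 0.87 with an adjusted p of 0.0171 for the summed shZfr samples).

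Some lists of cell type markers were higher in shControl2 than in shControl1 neurons, as Dkk3 was, where 19.9% of all tested genes were called higher. Summed astrocyte and radial glia markers were at 2890 to 3360 CPM in shControl2 neurons and 909 to 1350 CPM in shControl1 neurons, and 9 of the 10 were called higher. Oligodendrocyte lineage markers were at 461 to 465 CPM in shControl2 neurons and 76.6 to 120 CPM in shControl1 neurons, with 6 of 8 called higher. Excitatory neuron markers were at 1440 to 1620 CPM in shControl2 neurons and 892 to 1020 CPM in shControl1 neurons, with 5 of 8 called higher. Not every list did so. Of 10 GABAergic interneuron markers 4 were called higher and 2 lower, and of 5 tested mural markers 1 higher and 2 lower. Of 6 Cajal-Retzius markers 0 were called. The astrocyte markers lay at 1690 to 2820 CPM in shAdar1, 675 to 1180 CPM in shAdar2 and 1720 to 1860 CPM in shZfr neurons, with no marker at 0 in any of these groups. The part of these cell types in the result was not tested. In bulk RNA, fewer cells of a type and less RNA per cell cannot be told apart.

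**Figure D3:**
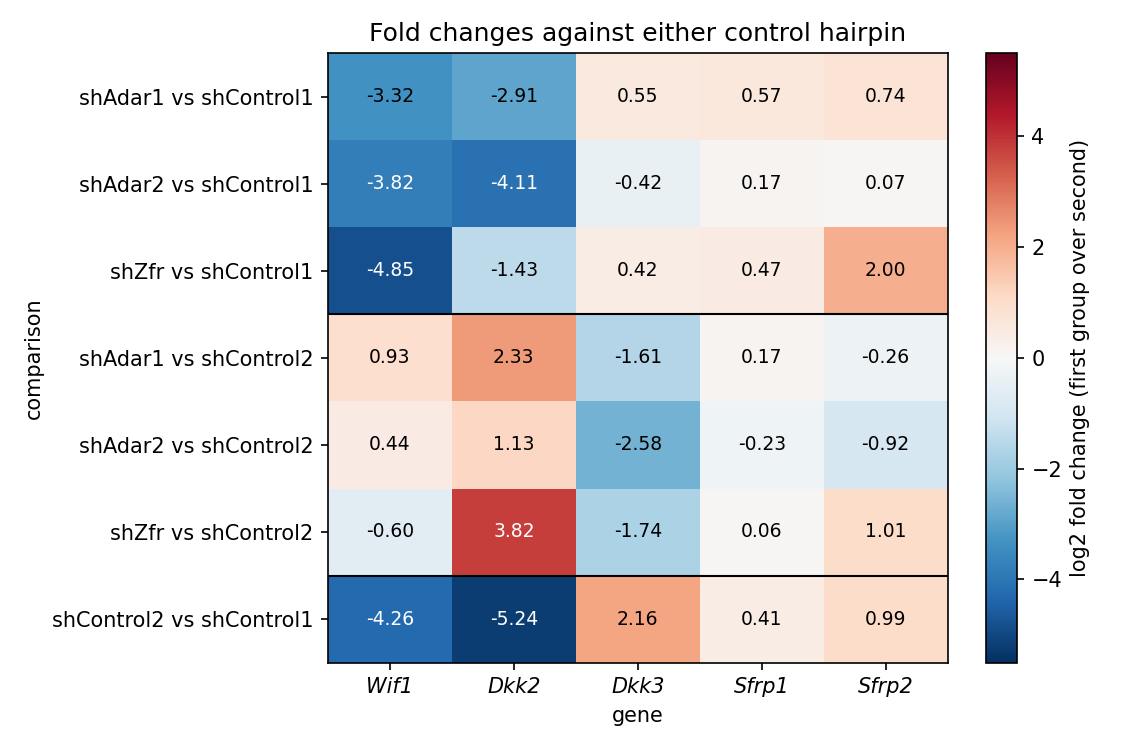
Log2 fold change (colour and printed value, first-named group over the second) of each gene for the knockdowns against shControl1 (upper 3 rows), against shControl2 (middle 3 rows), and for shControl2 against shControl1 (bottom row). Dkk2 is negative in all 3 upper rows and positive in all 3 middle rows, Wif1 turns for shAdar1 and shAdar2, and Dkk3 is negative in all 3 middle rows.

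Sfrp1, a Frizzled-related protein with a cysteine-rich domain that binds Wnt, was the steadiest of the 5. It had 131 and 105 CPM in shAdar1 neurons, 85.7 and 93.1 CPM in shAdar2 neurons, 107 and 113 CPM in shZfr neurons, 106 and 103 CPM in shControl2 neurons, and 72.6 and 85.8 CPM in shControl1 neurons. Its highest and lowest group means lay 1.49-fold apart, against 29.6-fold for Wif1, 38.5-fold for Dkk2, 5.87-fold for Dkk3 and 4.01-fold for Sfrp2. The samples of shAdar1 overlapped those of shZfr and shControl2, and the samples of shAdar2 overlapped those of shControl1. Sfrp1 rose in shAdar1 neurons against shControl1 (0.57 ± 0.13, edgeR adjusted p = 0.016), as the single gene called of the 3 tested there, in a comparison that called 16.2% of all genes. The call was lost without shAdar1 replicate 1 (0.39, adjusted p = 0.106), without shControl1 replicate 1 (0.46, adjusted p = 0.0883) and with those 2 groups alone in the fit (0.55, adjusted p = 0.0543).

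None of the 3 tested genes was called in shAdar2 against shControl1 by edgeR, where 46.4% of all genes were. None of the 3 had an unadjusted p under 0.05 (the lowest was 0.0535, for Dkk3), and DESeq2 called none of them (lowest adjusted p = 0.0761). Sfrp1 stood there at 0.17 ± 0.13 (adjusted p = 0.284), and in shZfr against shControl2 at 0.06 ± 0.13 (adjusted p = 0.736). Between the control hairpins it was 0.41 ± 0.13 higher in shControl2 (adjusted p = 0.0271), a call lost without shControl1 replicate 1 (0.29, adjusted p = 0.162) or without either shControl2 replicate (0.4, adjusted p = 0.0917, and 0.44, adjusted p = 0.0822). In shZfr against shControl1 it was 0.47 ± 0.13 higher (adjusted p = 0.0133), a call lost with the shZfr samples summed (0.5, adjusted p = 0.053), without shZfr replicate 2 (0.44, adjusted p = 0.0843) and without shControl1 replicate 1 (0.36, adjusted p = 0.0929). Neither shAdar1 (0.17, adjusted p = 0.34, and -0.09 in deposited TPM) nor shAdar2 (-0.23, adjusted p = 0.138) passed against shControl2. Sfrp1 was lower in shAdar2 than in shAdar1 neurons (-0.4 ± 0.13, adjusted p = 0.0316), as Dkk3 was, in a comparison that called 38% of all genes. That call was lost without shAdar1 replicate 1 (-0.22, adjusted p = 0.252), without shAdar2 replicate 1 (-0.35, adjusted p = 0.095) and with the second technical library alone (-0.22, adjusted p = 0.234).

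Sfrp2, the second Frizzled-related member, peaked in shZfr neurons. It had 3.6 and 6.3 CPM in shAdar1 neurons, 2.29 and 4.2 CPM in shAdar2 neurons, 12.7 and 11.3 CPM in shZfr neurons, 6.01 and 5.89 CPM in shControl2 neurons, and 3.31 and 2.67 CPM in shControl1 neurons. Both shZfr samples were above the other 8, whose groups overlapped except for shControl2 with shAdar2 and with shControl1, and for shAdar1 with shControl1. In shZfr against shControl2 the log2 fold change was 1.01 ± 0.33 (adjusted p = 0.0436), and with both shZfr samples summed to 1 it was 1.01 (adjusted p = 0.144). The call was also lost with any of the 4 samples left out, at adjusted p-values up to 0.189. Against shControl1 the shZfr value was 2 ± 0.34 (adjusted p = 0.00123), or 2.02 with the shZfr samples summed (adjusted p = 0.00778), in a comparison that called 46.2% of all genes. Sfrp2 was higher in shZfr than in shAdar2 neurons (1.93 ± 0.34, adjusted p = 0.000924, and 1.95 with an adjusted p of 0.00536 summed) and than in shAdar1 neurons (1.27 ± 0.33, adjusted p = 0.014, where 39.2% of all genes were called). The call against shAdar1 was lost with both shZfr samples summed (1.31, adjusted p = 0.0537), without shAdar1 replicate 1 (0.96, adjusted p = 0.0766) and without shZfr replicate 1 (1.22, adjusted p = 0.0717).

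Between the control hairpins Sfrp2 was 0.99 ± 0.34 higher in shControl2 (adjusted p = 0.0393), a call lost with any of the 4 samples left out. Neither shAdar1 (0.74 ± 0.34, adjusted p = 0.172) nor shAdar2 (0.07 ± 0.34, adjusted p = 0.879) passed against shControl1. Against shControl2, Sfrp2 was lower in shAdar2 neurons (-0.92 ± 0.34, adjusted p = 0.0391), a call lost without shAdar2 replicate 1 or without either shControl2 replicate. Proliferating progenitor markers summed to 210 to 510 CPM in shAdar1 neurons, 66.7 to 141 CPM in shAdar2 neurons, 703 to 762 CPM in shZfr neurons, 472 to 508 CPM in shControl2 neurons and 150 to 188 CPM in shControl1 neurons. They were highest in shZfr, as Sfrp2 was, and lowest in shAdar2, while the lowest mean of Sfrp2 was in shControl1. Of the 7 markers, 0 were called in shZfr against shControl2 and 1 was called higher in shZfr than in shAdar1 neurons. Those comparisons called 30.7% and 39.2% of all genes in either direction. In shZfr neurons 6 markers were called higher than in shAdar2 neurons and 6 higher than in shControl1 neurons. In shControl2 neurons 5 were called higher than in shControl1 neurons. These last comparisons called 60.5%, 46.2% and 43.1% of all genes in either direction. The part of these cells in the result was not tested.

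Levels of different genes can be set side by side per length, in the deposited TPM. Sfrp1 made up 47.4% to 80.8% of the summed TPM of the 5 genes, Dkk3 11.7% to 45.5%, Sfrp2 3.91% to 17.8%, Wif1 0.282% to 24.2% and Dkk2 0% to 6.17%. Summed over the 5 genes, TPM was 93.6 to 105 in shAdar1 neurons, 71.6 to 85.3 in shAdar2 neurons, 117 to 120 in shZfr neurons, 149 to 159 in shControl2 neurons, and 75.5 to 108 in shControl1 neurons. The higher sum in shControl2 neurons came with 65.9 ± 9.35 TPM of Dkk3, against 13.4 ± 1 TPM in shControl1 neurons. In shControl1 replicate 2, Wif1 reached 26.1 TPM and stood above Dkk3, at 12.7 TPM. In all other samples Dkk3 was above Wif1.

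**Figure D4:**
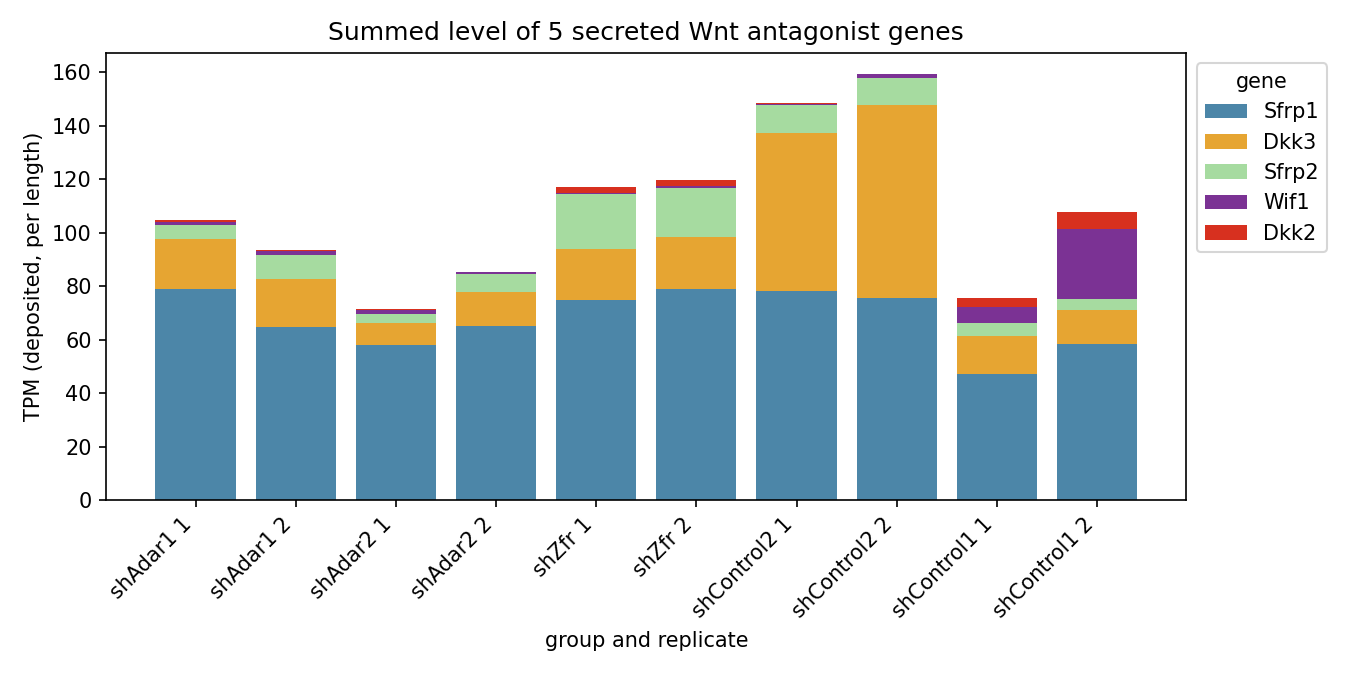
Deposited TPM of the 5 genes stacked for each sample (bars from 0, vertical axis in TPM). Sfrp1 is the largest part of every bar, Dkk3 adds 59.3 and 72.5 TPM in shControl2, and Wif1 adds 5.87 and 26.1 TPM in shControl1.

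Fibroblast and meningeal markers were low throughout. Their summed level was 7.93 to 9.38 CPM in shAdar1, 14.1 to 19.4 CPM in shAdar2, 4.95 to 6.48 CPM in shZfr, 21.8 to 24.2 CPM in shControl2 and 5.88 to 10.5 CPM in shControl1 neurons. The sum in shControl2 is mostly Dcn, the proteoglycan decorin, at 19.3 and 21.7 CPM. Aldh1a2, a retinoic acid synthesis enzyme of the meninges, was among the 5 genes most like Wif1, with 0 and 0.0457 CPM in shControl2 neurons, and 0.423 and 1.06 CPM in shControl1 neurons. Of the 7 markers tested between the control hairpins, 2 were called higher and 3 lower (71.4%, where all genes gave 43.1%). The part of these markers' cells in the levels of Wif1 and Dkk2 was not tested. Endothelial markers did not exceed 3.58 CPM in sum and microglia markers 5.35 CPM in any sample.

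Genes with the most similar pattern were ranked by Pearson's correlation of log2 CPM over the 10 samples, as a description, since these samples share group, library and depth. The closest to Wif1 were Scg3 (r = 0.977), Kcnh7 (0.965), Gfpt2 (0.955), Sgtb (0.955) and Aldh1a2 (0.949), with n = 10. For Dkk2 they were Isg20l2 (0.974), Cdc16 (0.963), Gtf2b (0.955), Tox4 (0.954) and Cdh26 (0.953), and for Dkk3 Ptchd4 (0.99), Faxc (0.989), Sh3d19 (0.988), Slc35a3 (0.982) and Grm5 (0.977). The Sfrp1 list was Spns2 (0.946), Eftud1 (0.925), Usp33 (0.907), Egflam (0.905) and Myc (0.897), and the Sfrp2 list Fbln2 (0.989), Zfp664 (0.979), Efcab11 (0.978), Lmnb1 (0.976) and Upf3b (0.975). No member was among the 5 closest to another. Among the members r ran from 0.58 for Wif1 with Dkk2 to -0.66 for Wif1 with Sfrp2. Ranked by Spearman's rho, 0, 1, 0, 2 and 0 of the 5 closest genes were shared for Wif1, Dkk2, Dkk3, Sfrp1 and Sfrp2.

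The rest of the pathway was read from 6 lists of 83 genes, of which 69 were tested and 14 fell under the filter, none above 0.927 CPM in any sample. In shAdar1 against shControl1, 11 genes rose and 2 fell (18.8% of those tested, where all genes gave 16.2%), with a median log2 fold change of 0.07 against 0.02 over all genes. In shAdar2 against shControl1, 21 rose and 9 fell (43.5%, where all genes gave 46.4%), with a median of 0.28 against 0.04. In shZfr against shControl2, 10 rose and 4 fell (20.3%, where all genes gave 30.7%), with a median of 0 against 0.05. Between the control hairpins 16 were higher and 6 lower in shControl2 (31.9%, where all genes gave 43.1%), with a median of 0.19 against -0.05. With 1 sample left out at a time these counts fell in each comparison but shAdar2 against shControl1, where they moved either way. The counts over all genes moved in the same directions, so the moves were not read as a result about the pathway. The pathway counts fell by over 1.5 times without shControl1 replicate 2 in these comparisons with shControl1. They did so without shControl1 replicate 1 for shAdar2, without shAdar1 replicate 2 for shAdar1, and without shControl2 replicate 2 between the control hairpins. Leaving out any of the 4 samples of shZfr and shControl2 did the same in that comparison. With both shZfr samples summed to 1, fewer pathway genes were called against shControl2, and the number over all genes there is not given here.

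Of the 7 other secreted antagonists tested, Draxin, an axon guidance protein that also binds LRP6, rose in shAdar1 neurons to 44.7 ± 0.122 CPM, against 14.2 ± 0.525 CPM in shControl1 neurons (log2 fold change 1.66 ± 0.11, edgeR adjusted p = 0.00024). It was also higher in shAdar2 than in shControl1 neurons (0.72 ± 0.11, adjusted p = 0.000951) and, at 51.5 ± 1.5 CPM, in shControl2 than in shControl1 neurons (1.86 ± 0.12, adjusted p = 1.79e-05). Against shControl2, Draxin was lower in shAdar2 neurons (-1.15, adjusted p = 3.64e-05) and did not pass in shAdar1 neurons (-0.2, adjusted p = 0.187). Notum, a secreted enzyme that removes the lipid of Wnt ligands, was lower in shAdar2 (0.0639 ± 0.0903 CPM) and in shControl2 (0.116 ± 0.0294 CPM) than in shControl1 neurons (0.688 ± 0.212 CPM), with adjusted p-values of 0.0156 and 0.0393. Igfbp4 was called higher in shAdar2 neurons, at 46 ± 45.2 CPM, against 12.8 ± 4.79 CPM in shControl1 neurons (1.83 ± 0.64, adjusted p = 0.0408), with replicates far apart. Sostdc1, which binds LRP6 and BMP ligands, rose in shZfr neurons to 5.95 ± 0.0389 CPM, against 1.19 ± 0.202 CPM in shControl2 neurons (2.32 ± 0.5, adjusted p = 0.00713, and 2.32 with an adjusted p of 0.0383 for the summed shZfr samples), and it also rose against shControl1 (1.93, adjusted p = 0.00873). Notum (-0.3, adjusted p = 0.817) and Igfbp4 (1.21, adjusted p = 0.125) did not pass in shAdar2 against shControl2.

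Among 11 Wnt ligands tested, Wnt7a rose in shAdar1 neurons (1.21 ± 0.29, adjusted p = 0.0229) and in shAdar2 neurons (1.58 ± 0.29, adjusted p = 0.0021) against shControl1, and was higher in shControl2 than in shControl1 (1.07 ± 0.29, adjusted p = 0.0152). Wnt4 rose in shAdar1 neurons against shControl1 (1.32 ± 0.36, adjusted p = 0.0366) and was higher in shControl2 than in shControl1 (2.12 ± 0.36, adjusted p = 0.00145). Wnt3 fell in shAdar1 neurons against shControl1 (-1.58 ± 0.39, adjusted p = 0.025). Wnt2b fell in shAdar2 against shControl1 (-2.12 ± 0.36, adjusted p = 0.00141) and in shZfr against shControl2 (-2.38 ± 0.41, adjusted p = 0.00237). Wnt5a, a ligand known for beta-catenin-independent signalling, rose in shZfr neurons to 34.2 ± 2.81 CPM, against 17.4 ± 0.319 CPM in shControl2 neurons (adjusted p = 0.00449). The R-spondin gene Rspo2, whose product amplifies Wnt signals, was at 32.3 ± 0.691 CPM in shAdar1 neurons and 14.4 ± 3.4 CPM in shControl1 neurons (adjusted p = 0.0107). It was at 20.6 ± 1.28 CPM in shZfr neurons and 41.5 ± 3.63 CPM in shControl2 neurons (adjusted p = 0.00987). Wls, which carries Wnt ligands to the cell surface, was lower in shControl2 than in shControl1 neurons (-1.11 ± 0.3, adjusted p = 0.0141).

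Read against the other control hairpin, some of these ligand results did not hold. In shAdar1 against shControl2, Wnt7a (0.14, adjusted p = 0.746), Wnt4 (-0.8, adjusted p = 0.104) and Rspo2 (-0.36, adjusted p = 0.254) did not pass, and Wnt3 fell there too (-1.42, adjusted p = 0.0213). In shAdar2 against shControl2, Wnt2b fell (-1.71, adjusted p = 0.00292), as it did against shControl1, and Wnt7a did not pass (0.51, adjusted p = 0.149). Wnt4 (-1.76, adjusted p = 0.00199) and Rspo2 (-1.26, adjusted p = 0.0013) were lower in shAdar2 than in shControl2 neurons. In shZfr against shControl1, Wnt2b fell (-2.8, adjusted p = 0.000497), Wnt5a rose (0.79, adjusted p = 0.00735), Wnt4 rose (2, adjusted p = 0.00175) and Rspo2 stood at 0.52 (adjusted p = 0.0984). With both shZfr samples summed to 1, Wnt2b (adjusted p = 0.0158) and Wnt5a (adjusted p = 0.029) passed against shControl2 and Rspo2 did not (-1.01, adjusted p = 0.0613).

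All 21 receptors and co-receptors were tested, and 3 rose in shAdar1 neurons against shControl1 (14.3%, where all genes gave 16.2%). Among them were Fzd4 (1 ± 0.2, adjusted p = 0.0109) and Fzd9 (0.93 ± 0.21, adjusted p = 0.0164). Against shControl2, Fzd4 was lower in shAdar1 neurons (-0.64, adjusted p = 0.0319) and in shAdar2 neurons (-1.85, adjusted p = 6.42e-05), while Fzd9 rose in shAdar1 neurons there too (0.74, adjusted p = 0.0222). In shAdar2 neurons against shControl1, 8 rose and 2 fell (47.6%, where all genes gave 46.4%). Those that fell were Ryk (-1.11 ± 0.11, adjusted p = 0.000101) and Fzd3 (-0.58 ± 0.14, adjusted p = 0.00795). Both also fell in shAdar2 neurons against shControl2 (-1.05, adjusted p = 6.13e-05, and -1, adjusted p = 0.000271). In shZfr neurons against shControl2, 4 rose and 1 fell (23.8%, where all genes gave 30.7%), with Fzd5 higher (1.33 ± 0.35, adjusted p = 0.0175) and Fzd9 lower (-0.94 ± 0.22, adjusted p = 0.0103). Kremen1, whose product binds Dickkopf proteins together with LRP6, rose in shZfr neurons against shControl2 (0.62 ± 0.18, adjusted p = 0.027) and was lower in shControl2 than in shControl1 neurons (-0.79 ± 0.18, adjusted p = 0.00592). With both shZfr samples summed to 1, Fzd5 (adjusted p = 0.0736), Fzd9 (adjusted p = 0.0667) and Kremen1 (adjusted p = 0.116) no longer passed against shControl2. Against shControl1, Fzd5 rose (2.01, adjusted p = 0.00153) and Fzd9 fell (-0.75, adjusted p = 0.0183) in shZfr neurons, and Kremen1 did not pass (-0.17, adjusted p = 0.455). Of the co-receptor genes that Dickkopf proteins act on, Lrp5 rose in shAdar2 against shControl1 (0.69 ± 0.25, adjusted p = 0.0481) and against shControl2 (0.69, adjusted p = 0.0383). Lrp6 was not called in shAdar1 or shAdar2 against shControl1, in shZfr against shControl2 or between the control hairpins. It was lower in shAdar2 than in shControl2 neurons (-0.5, adjusted p = 0.0247).

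Of the 18 signal transduction genes, Ctnnb1, which encodes beta-catenin, rose in shAdar1 neurons to 478 ± 21.4 CPM, against 324 ± 50.5 CPM in shControl1 neurons (0.56 ± 0.12, adjusted p = 0.0124). Gsk3b, a kinase of the complex that marks beta-catenin for degradation, fell in shAdar2 neurons to 317 ± 1.04 CPM, against 856 ± 38.1 CPM in shControl1 neurons (-1.43 ± 0.12, adjusted p = 3.69e-05). The Dishevelled gene Dvl3 rose in both shAdar1 (0.54 ± 0.1, adjusted p = 0.00807) and shAdar2 neurons (0.95 ± 0.1, adjusted p = 0.000129) against shControl1. Among 11 beta-catenin target genes tested, Axin2 rose in shAdar1 (0.72 ± 0.15, adjusted p = 0.0136) and shAdar2 neurons (0.81 ± 0.15, adjusted p = 0.00213) against shControl1. It was the 1 target called in shAdar1 neurons (9.09%, where all genes gave 16.2%). In shAdar2 neurons 3 targets rose and 2 fell (45.5%, where all genes gave 46.4%). Those that fell were Notum (-2.82, adjusted p = 0.0156) and Znrf3 (-0.46, adjusted p = 0.0385). In the comparisons with shControl2, Gsk3b fell in shAdar2 (-1.57, adjusted p = 1.09e-05) and in shAdar1 neurons (-0.37, adjusted p = 0.0336). Dvl3 rose there in shAdar2 (0.71, adjusted p = 0.000293) and shAdar1 neurons (0.31, adjusted p = 0.0428), and Axin2 in shAdar2 neurons (0.49, adjusted p = 0.0178). Ctnnb1 (0.19, adjusted p = 0.243) and Axin2 (0.4, adjusted p = 0.071) did not pass in shAdar1 against shControl2. The targets Nkd1 (-1.51, adjusted p = 0.001) and Znrf3 (-0.57, adjusted p = 0.0219) fell there, and 0 targets rose (18.2% called, where all genes gave 33.2%). In shAdar2 against shControl2, 2 targets rose and 2 fell (36.4%, where all genes gave 59.5%), with Znrf3 (-1.28, adjusted p = 0.000139) and Nkd1 (-0.7, adjusted p = 0.0152) lower.

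Apcdd1, a membrane inhibitor of Wnt signalling, rose in shZfr neurons against shControl2 (1.4 ± 0.22, adjusted p = 0.00141, and 1.41 with an adjusted p of 0.0143 for the summed shZfr samples) and against shControl1 (1.82, adjusted p = 0.000186). Nkd1, an intracellular inhibitor that binds Dishevelled proteins, changed direction with the control hairpin. In shZfr neurons it fell against shControl2 (-0.72 ± 0.21, adjusted p = 0.0275), a call lost with the samples summed (-0.71, adjusted p = 0.148), and rose against shControl1 (1.3, adjusted p = 0.00114). In shAdar2 neurons it fell against shControl2 (-0.7, adjusted p = 0.0152) and rose against shControl1 (1.32 ± 0.22, adjusted p = 0.0011). It was higher in shControl2 than in shControl1 neurons (2.02 ± 0.22, adjusted p = 0.000142).

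**Figure D5:**
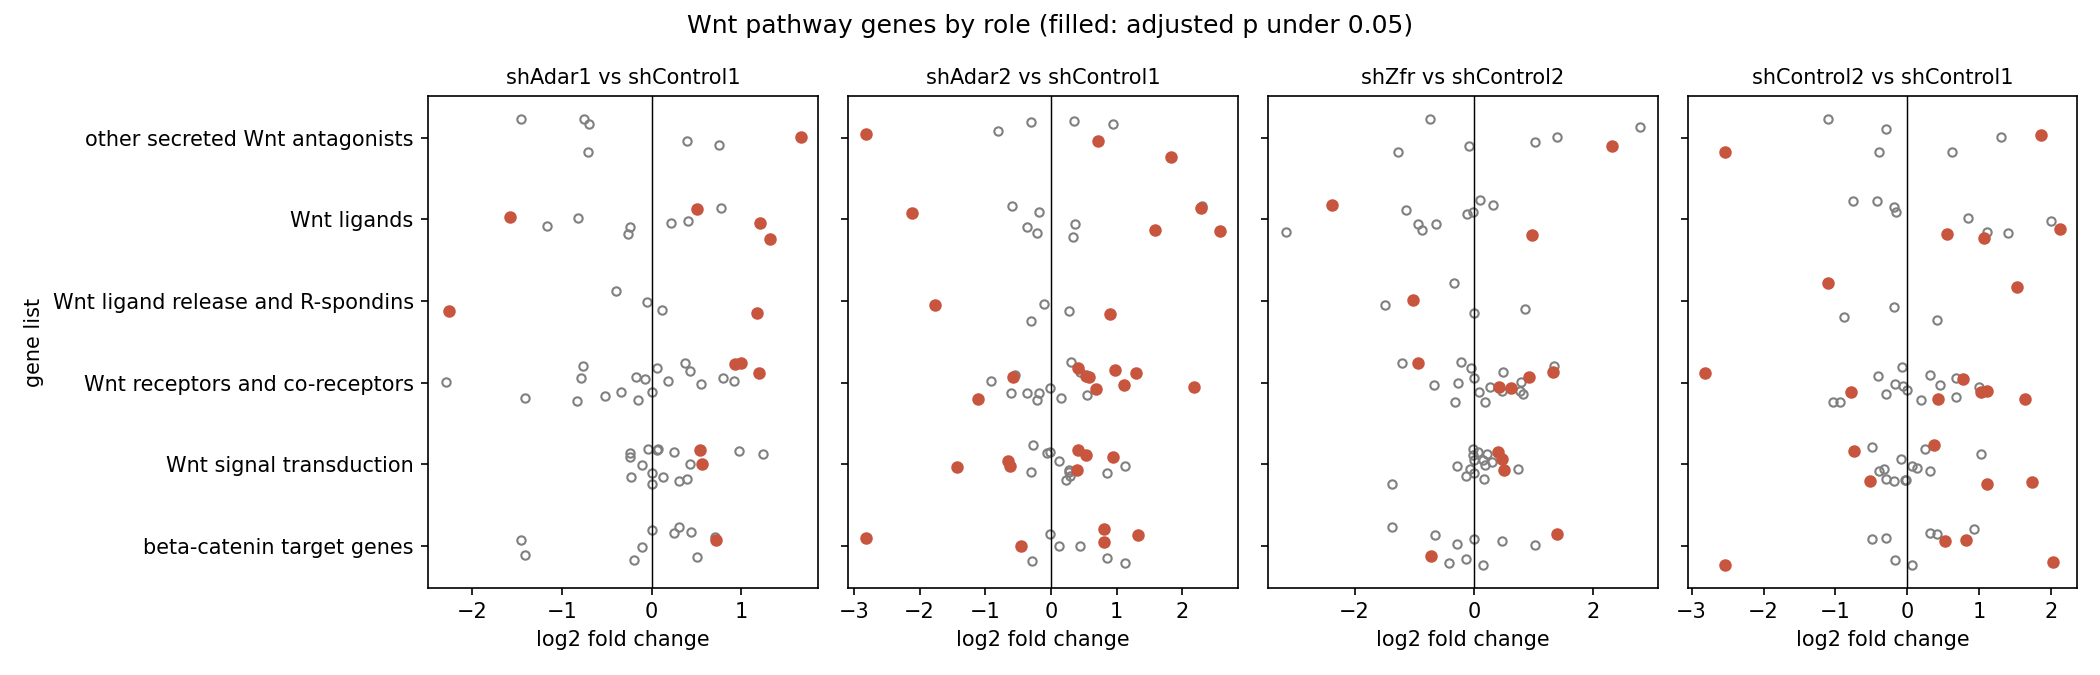
Log2 fold change (horizontal axis, first-named group over the second) of the tested genes of 6 Wnt pathway lists in 4 comparisons, with vertical jitter within a list. Filled points have an edgeR adjusted p under 0.05: 13, 30, 14 and 22 of 69 genes from left to right, on both sides of 0 in each panel.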

How the data were processed

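RNA was measured in 12 libraries of mouse cortical neurons, depleted of ribosomal RNA with antisense DNA oligonucleotides and RNase H and made with the KAPA RNA HyperPrep Kit, per the labels' protocols. The authors deposited RSEM expected counts per gene (estimated, not normalised) and TPM (scaled by the authors per gene length and library), per the file headers. The submitters' processing notes name the mm9 build and the tools RSEM 1.2.30, STAR 2.5.4b, DESeq2 1.20.0, Trim Galore 0.4.5 and SAMtools 1.4. RSEM's deposited posterior SD of the members' counts, another column, was 0 in all 12 libraries. Editing tables were not used here.

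Expected counts were rounded, and the 3 technical libraries of shAdar2 replicate 1 were summed, which left 10 samples. Genes were filtered with filterByExpr (14785 kept), scaled by TMM and fitted across the 10 samples in R 4.3.3 with the quasi-likelihood model of edgeR 4.0.16, with Benjamini-Hochberg adjustment over all tested genes of a comparison and a threshold of 0.05. A standard error is the size of the fold change over the root of F. There were 10 comparisons. Log2 CPM for correlations used a prior count of 2. Poisson intervals and the floor of 3 counts cover counting error only, since reads carry no molecular identifiers. The test was run on simulated counts drawn independently with the spread fitted here, which does not cover replicates that are not independent. Its outcome is not reported here.

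The members and lists were chosen with earlier results of these data known. Named were the 5 members, up to 4 called genes with the lowest p per pathway list and comparison (examples are given), the 5 genes most like each member and the targeted genes. Lrp5, Lrp6 and the marker Dcn, named outside that rule, were chosen after their values were seen, as were the comparisons with the other control hairpin given for pathway genes. Alternatives were the Wald test of DESeq2 1.42.0, edgeR with DESeq2 size factors, the absence of a filter, only the compared groups in the fit, a replicate block, each sample left out, single technical libraries, Rn45s left out and deposited TPM. Summing both shZfr samples was added after seeing the data. Same-numbered samples deviated together little (r between -0.12 and 0.28, the highest for shAdar1 with shAdar2), and replicate numbers were not used as pairs.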

Additional observations from a re-analysis of the deposited data

Results flagged for a closer look

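The effects of shAdar1 and shAdar2 differed for 2 of the genes, by the edgeR test of the difference, in which shControl1 cancels. That comparison called 38% of all genes. For Dkk3 the shAdar2 effect minus the shAdar1 effect was -0.97 on the log2 scale (adjusted p = 0.00388), with 9.43 and 13.7 CPM in shAdar2 neurons against 23.2 and 21.5 CPM in shAdar1 neurons. For Sfrp1 it was -0.4 (adjusted p = 0.0316), with 85.7 and 93.1 CPM in shAdar2 neurons against 131 and 105 CPM in shAdar1 neurons. With the 2 groups alone in the fit, the Sfrp1 difference did not pass (-0.37, adjusted p = 0.134). With 1 sample left out at a time it ran from -0.56 to -0.22. No group had the 4 samples that a check for single outlying samples needs.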

How the results depend on the processing

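Dkk3 kept its call and direction in shZfr against shControl2, in shControl2 against shControl1, and in shAdar1 and shAdar2 against shControl2 under each alternative with a test. Other results moved. Without a filter, Dkk3 in shAdar1 against shControl1 passed (0.55, adjusted p = 0.0495). With the compared groups alone in the fit, Sfrp1 in shAdar1 against shControl1 did not (0.55, adjusted p = 0.0543), and the Wnt pathway genes called numbered 13 for shAdar2 against shControl1, 32 for shZfr against shControl2 and 35 for shControl2 against shControl1, where the fit over all samples gave 30, 14 and 22. The numbers over all genes under that setting are not given here, so these counts are not a result about the pathway. With both shZfr samples summed to 1, Sfrp2 in shZfr against shControl2 was 1.01 and did not pass, in a fit of fewer samples. Fewer pathway genes were called there too. With the first technical library alone, Wif1 in shAdar2 against shControl2 was -0.35. With the third alone, Dkk2 in shAdar2 was -6.61 against shControl1 and -1.09 against shControl2, both set by the floor of 3 counts. In deposited TPM, Sfrp1 was -0.09 in shAdar1 against shControl2 and 0.1 in shZfr against shAdar1, and Dkk3 was 0.07 in shZfr against shAdar1, all uncalled. The cause of these changes was not tested, beyond the fewer samples and the floor named. Leaving out 1 sample at a time gave these ranges. Sfrp1 was 0.39 to 0.72 in shAdar1 against shControl1, 0.29 to 0.53 in shControl2 against shControl1, -0.03 to 0.32 in shAdar1 against shControl2 and -0.25 to 0.09 in shZfr against shAdar1. Sfrp2 was -0.39 to 0.49 in shAdar2 against shControl1, 0.84 to 1.15 in shControl2 against shControl1, 0.92 to 1.08 in shZfr against shControl2 and -0.72 to 0.04 in shAdar1 against shControl2. Dkk3 was -0.7 to -0.16 in shAdar2 against shControl1, Dkk2 3.28 to 4.62 in shZfr against shControl2, and Wif1 -0.15 to 0.91 in shAdar2 against shControl2. Pathway genes called numbered 2 to 11, 15 to 34, 4 to 6 and 12 to 18 in shAdar1 and shAdar2 against shControl1, shZfr against shControl2 and shControl2 against shControl1. Dkk2 in shAdar2 against shControl2 had no value without shAdar2 replicate 1, since both groups were then near the floor. The replicate block, whose numbers are not known to pair the samples (r between -0.12 and 0.28, the highest for shAdar1 with shAdar2), changed no member's call. With it Dkk3 was -1.73 and Sfrp2 1.01 in shZfr against shControl2, and Sfrp1 0.57 in shAdar1 against shControl1. Depth limits Wif1 and Dkk2, which rest on fewer than 100 counts in every sample outside shControl1.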
